A study of Mus musculus with 9 samples.

Results

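The genes described here are 34 type I interferon response genes, a set named by gene symbol that holds the RNA sensors, transcription factors and antiviral effectors most often used to read an interferon response. They were found by matching each symbol to the symbol that the array platform's annotation gives for each transcript cluster, the array's unit of one gene. Of the 34, 33 were measured, each by 1 cluster, among 19572 clusters with a symbol that stand for 19505 genes. Ifi44 was not analysed here. The rule that names them uses no measured value, but they were listed with earlier results of these data known.

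The fat samples came from male mice in 3 groups of 3, and each sample of white adipose tissue was read on its own Clariom S array, 9 in all. The lean group was C57BL/6JHamSlc-+/+, given vehicle for 42 days and called wild type below. The obese groups were C57BL/6JHamSlc-ob/ob, which lack functional leptin, the satiety hormone made by fat cells. One obese group received vehicle for 42 days and the other an extract of Vigna umbellata (rice bean), written VE, at 100 mg/kg by oral gavage over the same 42 days. All mice were 6 weeks old when obtained, had 1 week to acclimatize and ate standard chow. The fat depot is not given in the sources used here. No interferon, virus or other interferon inducer is named for any group, so the values are levels in unchallenged tissue.

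Type I interferons are secreted proteins that nearly all cells can make after sensing viral or misplaced nucleic acid. They bind the receptor chains Ifnar1 and Ifnar2, whose kinases Jak1 and Tyk2 phosphorylate STAT proteins such as Stat2. Together with Irf9, phosphorylated Stat2 is part of a complex that binds the interferon-stimulated response element (ISRE) in promoters and switches on interferon-stimulated genes. In adipose tissue both fat cells and macrophages can respond to them.

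Promoter letters were searched for the element described above. RefSeq promoter windows (build GRCm38.p6, from 250 bases before to 50 bases after each transcript start) were found for 25 of the 33 measured genes, and not for Dhx58, Zbp1, Usp18, Oas2, Mx1, Mx2, Iigp1 and Parp14. The ISRE core was searched as GAAANNGAAA on either strand, read as TTTCNNTTTC on the other, with overlapping cores counted. It was present in 16 of the members' 33 windows (48.5%), belonging to 15 of the 25 genes, and in 1131 of all 32851 windows (3.44%). The stretches below run 5′ to 3′ on the gene's own strand, toward its start, with the ISRE cores in capitals. Gbp2 is given whole up to its start because it was the only gene called below, of those with a window, that held the core. The other stretches, chosen after the search was run, show how paired and overlapping cores look in genes of different roles.
Gbp2 (chr3:142620413-142620662, gene on the forward strand)
Gbp2: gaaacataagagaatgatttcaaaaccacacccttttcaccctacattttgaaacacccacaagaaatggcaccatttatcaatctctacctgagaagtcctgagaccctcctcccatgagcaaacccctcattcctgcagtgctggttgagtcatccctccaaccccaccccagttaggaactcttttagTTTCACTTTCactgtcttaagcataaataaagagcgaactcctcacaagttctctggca
Gbp3 (chr3:142559991-142560022, forward)
Gbp3: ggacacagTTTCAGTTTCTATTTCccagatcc
Isg15 (chr4:156200867-156200904, gene on the reverse strand)
Isg15: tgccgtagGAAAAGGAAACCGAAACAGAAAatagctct
Oas1a (chr5:120907526-120907553, reverse)
Oas1a: cttctcggGAAATGGAAACTGAAAatct
Irgm1 (chr11:48871427-48871458, reverse)
Irgm1: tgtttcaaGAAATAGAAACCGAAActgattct
Ifit3 (chr19:34583365-34583424, forward)
Ifit3: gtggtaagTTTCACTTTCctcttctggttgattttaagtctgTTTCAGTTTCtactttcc
Ifit1 (chr19:34640777-34640821, forward)
Ifit1: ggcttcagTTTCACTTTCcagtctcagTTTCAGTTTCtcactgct

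In Gbp2 the core begins 59 bases before the start. Gbp3 holds a pair of cores that share letters, and Isg15 holds 3 that overlap in one run. The windows of Irf8 and Ifit2, both called below, held no core in these letters. A match is a description of sequence, and binding was not measured.

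The arrays differed in ways that touch every contrast with wild type. The deposited values are log2 signals, in which a difference of 1 is a doubling, and array medians were 6.23 to 6.26 in wild type, 6.11 to 6.18 in ob/ob vehicle and 6.13 to 6.15 in VE. Arrays correlated at 0.933 to 0.956 among wild type and at 0.98 or more within each obese group. Mean log2 signals over 16 epithelial markers were 8.90, 9.18 and 6.97 on wild type arrays 1, 2 and 3 and 4.37 to 4.81 on the 6 obese arrays. Over 19 macrophage markers they were 8.24, 8.52 and 9.62 in wild type and 11.77 to 12.47 in the obese groups. Of those macrophage markers 14 (73.7%) were called higher in each obese group against wild type and none lower. Of all clusters, 9.02% were called higher in ob/ob vehicle and 12.4% in VE. The part of the macrophage markers in the results below was not tested. Over 11 fat cell markers the means were 15.68, 15.41 and 16.73 on wild type arrays 1, 2 and 3 and 16.27 to 17.16 on the 6 obese arrays. Because the epithelial signal was highest on wild type arrays 1 and 2, contrasts with wild type were also computed without both, which leaves 1 wild type array. This lessens the epithelial signal and does not remove it. Over the 16 markers the median difference from wild type was −1.8 in ob/ob vehicle and −1.94 in VE. With all arrays it was −3.605 and −3.653. In bulk tissue, fewer cells of a type and less RNA per cell cannot be told apart.

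The set as a whole lay at similar levels in lean and obese fat. Averaged over the 33 genes, the log2 level was 6.60, 6.44 and 6.61 on the wild type arrays, 6.49, 6.53 and 6.68 in ob/ob vehicle and 6.63, 6.64 and 6.59 in VE. The ranges of the 3 groups overlapped. A gene is called here when its adjusted p, from limma over all 19572 clusters with the Benjamini-Hochberg method, is under 0.05. In ob/ob vehicle against wild type that rule called 2 of the 33 genes (6.06%), Dhx58 and Irf8, both higher. It called 14.1% of all clusters, 9.02% higher and 5.05% lower. At an unadjusted p under 0.05 there were 7 genes of the set (21.2%), against 28.4% of all clusters. Leaving out single arrays, the count of calls was 0 without ob/ob vehicle array 1 or 3 or VE array 2, and 1 without VE array 3, ob/ob vehicle array 2 or the first wild type array. Without wild type array 2 it was 2, but the genes were Trim30a and Gbp3, and 0 were shared.

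In limma, VE against ob/ob vehicle gave 0 calls among the 33 genes, with 0.0255% of all clusters called. At an unadjusted p under 0.05 it gave 1 gene (3.03%), Mx1, and 4.56% of all clusters. VE against wild type gave 3 genes (9.09%), Dhx58, Ifit2 and Gbp2, all higher, with 20.0% of all clusters called, 12.4% higher and 7.58% lower. That count was 0 without VE array 1 or 2, 1 without VE array 3 and 5 without wild type array 2. Of those 5, 2 were shared, and Isg20 and Trim30a entered higher and Irf1 lower. Without wild type array 1 the count was 3, but 1 was shared, and Irf8 entered higher and Irf9 lower. With all arrays, an unadjusted p under 0.05 in VE against wild type gave 6 genes (18.2%), against 33.9% of all clusters. Both obese groups were compared with the same wild type arrays, so these comparisons are not independent. In all, 4 genes were called in some comparison and 29 in none.

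The median difference over the set was −0.11 for ob/ob vehicle minus wild type, 0.017 for VE minus ob/ob vehicle and 0.003 for VE minus wild type, and over all clusters −0.037, −0.023 and −0.067. Individual differences ran from −0.74 to 1.47 in the first comparison, with 14 genes above 0 and 19 below. For 15 of the 33 genes (45.5%) the 95% interval of that difference lay wholly within a doubling or halving, as it did for 41.7% of all clusters. In VE minus ob/ob vehicle the interval did so for 18 genes (54.5%), against 60.3% of all clusters. The median standard error over the set was 0.292 with 3 arrays in a group, and an exact permutation test of 3 against 3 cannot give a p under 0.1. In ob/ob vehicle against wild type the groups did not overlap for 8 genes (24.2%), 7 higher and 1 lower, against 28.9% of all clusters. In VE against wild type they did not overlap for 7 genes (21.2%), against 37.2% of all clusters.

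**Figure D1:**
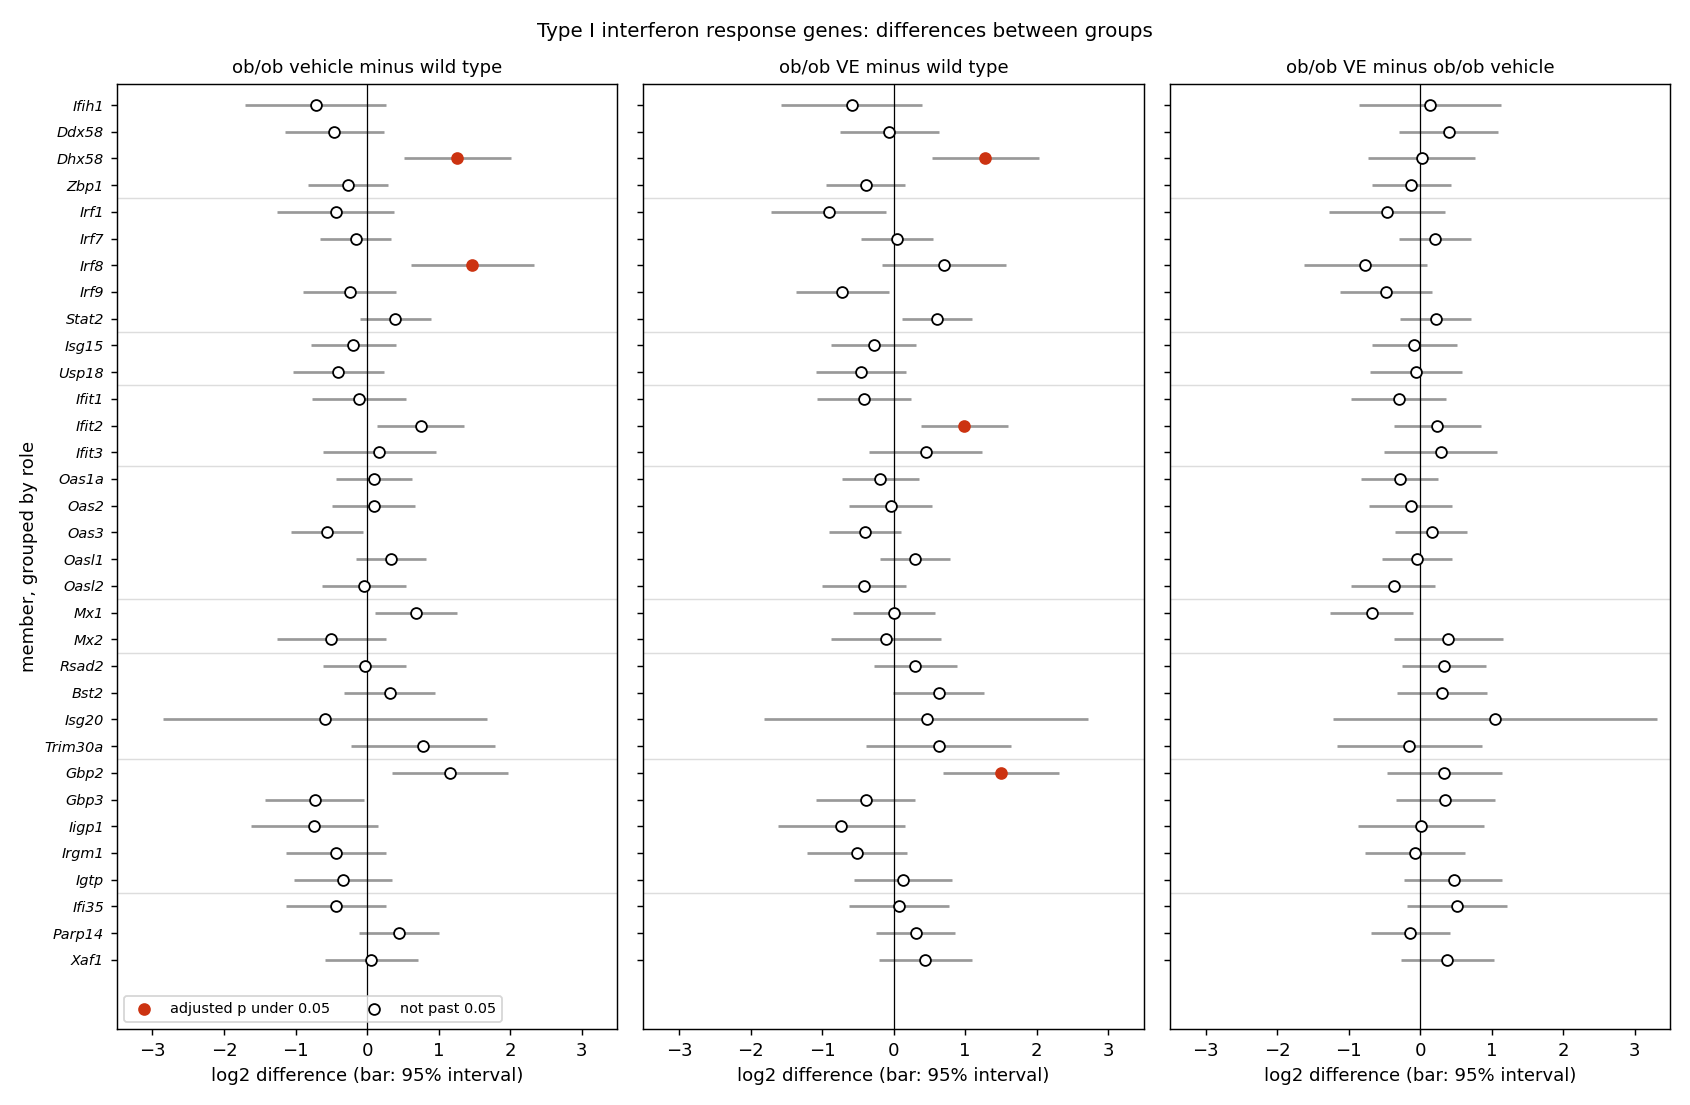
Log2 difference (x axis) for each of the 33 measured genes (y axis, ordered by role) in ob/ob vehicle minus wild type, VE minus wild type and VE minus ob/ob vehicle. Points are limma estimates from 3 arrays a group, bars are 95% intervals, and filled points are past an adjusted p of 0.05: 2 genes on the left, 3 in the middle and 0 on the right.

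Among the RNA and DNA sensors, 1 of 4 was higher in both obese groups and the 3 others were not called. Dhx58 encodes LGP2, a helicase that modulates the signalling sensors Ddx58 (RIG-I) and Ifih1 (MDA5). Its log2 levels were 3.87, 3.58 and 4.32 in wild type, 5.26, 4.94 and 5.36 in ob/ob vehicle and 5.66, 5.47 and 4.48 in VE. Every obese array was above every wild type array. The difference was 1.26 ± 0.34 (SE), or 2.4-fold, in ob/ob vehicle (adjusted p = 0.0328) and 1.28 in VE (adjusted p = 0.0245), while VE and vehicle differed by 0.02 (95% interval −0.73 to 0.77). The call in ob/ob vehicle was lost without wild type array 1 (adjusted p = 0.0745) or 2 (0.0872), ob/ob vehicle array 1 (0.09), 2 (0.0652) or 3 (0.103), or VE array 2 (0.0503). In VE it was lost without wild type array 1 (0.0595) or 2 (0.066) or VE array 1 (0.0973) or 2 (0.0919). Without wild type arrays 1 and 2 together the differences were 0.87 (adjusted p = 0.279) and 0.88 (adjusted p = 0.237).

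Ifih1, the sensor of long double-stranded RNA, read 10.71, 9.31 and 9.40 in wild type, 8.27, 9.78 and 9.20 in ob/ob vehicle and 9.11, 9.26 and 9.30 in VE. Its groups overlapped, and the difference between ob/ob vehicle and wild type was −0.72 (95% interval −1.71 to 0.26, adjusted p = 0.33). Ddx58, which recognises short RNA with a triphosphate end, differed by −0.46 (95% interval −1.15 to 0.23). Zbp1, a sensor of Z-form nucleic acid that can trigger necroptosis, differed by −0.27. The signalling sensors and Dhx58 therefore had differences of opposite sign, of which that of Dhx58 alone was called.

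Of the 5 transcription factors, Irf8 was higher in ob/ob vehicle and the 4 others were not called. Irf8 is also a lineage factor of macrophages and dendritic cells, and not only an interferon target. It read 7.89, 6.63 and 6.63 in wild type, 8.65, 7.94 and 8.98 in ob/ob vehicle and 8.04, 7.57 and 7.66 in VE. All ob/ob vehicle arrays were above all wild type arrays, and VE lay between, overlapping both. The difference between ob/ob vehicle and wild type was 1.47 ± 0.39 (SE), or 2.78-fold (adjusted p = 0.0315), and it was 1.89 (adjusted p = 0.0173) without wild type arrays 1 and 2. The call was lost without wild type array 2 (adjusted p = 0.0845) or 3 (0.0633), ob/ob vehicle array 1 (0.0916) or 3 (0.112), or VE array 2 (0.0519) or 3 (0.0506). Irf8 differed by −0.77 between VE and ob/ob vehicle (95% interval −1.63 to 0.10, adjusted p = 1) and by 0.71 between VE and wild type (adjusted p = 0.232), which was called without wild type array 1 (1.13, adjusted p = 0.0461).

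Irf1, a factor induced by interferon gamma as well as type I interferon, read 10.32, 9.03 and 10.40 in wild type, 9.71, 9.05 and 9.66 in ob/ob vehicle and 8.88, 9.08 and 9.06 in VE. Wild type array 2 was low, at the level of the VE arrays. VE and wild type differed by −0.91 (95% interval −1.72 to −0.10, adjusted p = 0.109), and without wild type array 2 by −1.35, which was called (adjusted p = 0.00984). Irf7, the factor that amplifies interferon alpha production, differed by −0.16 between ob/ob vehicle and wild type. The ISGF3 partners had differences of opposite sign in VE minus wild type, at −0.72 for Irf9 (adjusted p = 0.11) and 0.61 for Stat2 (adjusted p = 0.081). Irf9 was called without wild type array 1 (−0.98, adjusted p = 0.038). The Stat2 values of both obese groups, from 8.07 to 8.66, were above the 7.69 to 8.05 of wild type.

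The ISG15 system was not called in any comparison. Isg15 is a ubiquitin-like protein that is attached to other proteins after interferon, and the run of overlapping cores in its promoter is shown above. It read 5.22, 4.72 and 4.48 in wild type, 4.72, 4.67 and 4.46 in ob/ob vehicle and 4.70, 4.75 and 4.14 in VE, and the groups overlapped throughout. Its difference between ob/ob vehicle and wild type was −0.19 (95% interval −0.79 to 0.41). Usp18, which removes Isg15 and blocks the receptor, differed by −0.40 (95% interval −1.03 to 0.24). VE minus ob/ob vehicle was −0.09 for Isg15 and −0.06 for Usp18.

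In the IFIT family, proteins that bind foreign RNA and block its translation, Ifit2 alone was called. Ifit2 read 5.64, 6.36 and 6.28 in wild type, 6.59, 6.96 and 6.98 in ob/ob vehicle and 6.95, 7.43 and 6.86 in VE. Every obese array was above every wild type array. VE was higher than wild type by 0.99 ± 0.27 (SE), or 1.98-fold (adjusted p = 0.0303), while ob/ob vehicle differed from wild type by 0.75 (adjusted p = 0.102) and VE from vehicle by 0.24 (95% interval −0.37 to 0.85). The call was lost without wild type array 1 (0.76, adjusted p = 0.0837) or VE array 1 (0.0695), 2 (0.116) or 3 (0.0517), and without wild type arrays 1 and 2 together (0.80, adjusted p = 0.158).

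Ifit1 read 4.84, 4.68 and 4.94 in wild type, 4.24, 4.57 and 5.32 in ob/ob vehicle and 4.65, 4.12 and 4.47 in VE. Ifit3 read 7.08, 7.93 and 8.69 in wild type, 8.07, 8.15 and 7.98 in ob/ob vehicle and 8.31, 8.51 and 8.24 in VE. Wild type spanned the ob/ob vehicle values of Ifit3, and all VE arrays lay above all ob/ob vehicle arrays, by 0.29 on average (adjusted p = 1). That gene is 1 of 3 whose VE and ob/ob vehicle values did not overlap (9.09%, against 12.6% of all clusters), beside Igtp, higher in VE, and Mx1, lower in VE. Ifit1 and Ifit3 have the ISRE pairs printed above, and Ifit2 has none in its window. Ifit3, Oas1a and several Gbp genes have near-identical copies in the mouse genome, and how far the probes separate them was not tested.

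**Figure D2:**
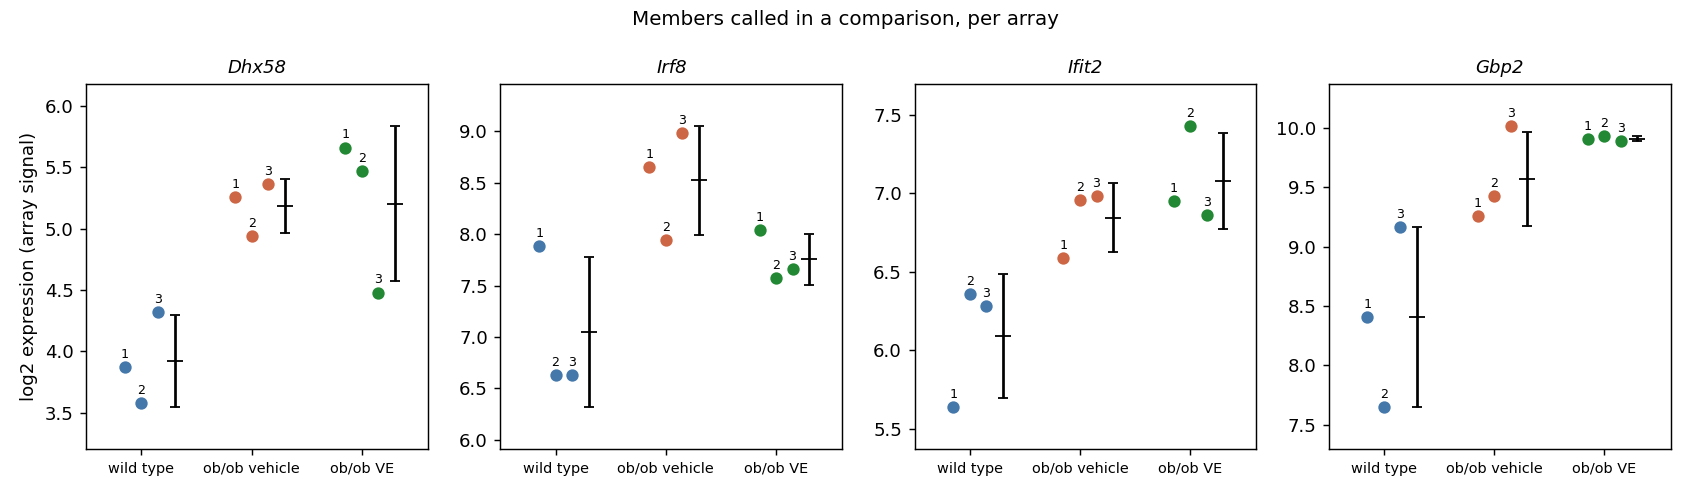
Log2 expression on each array (y axis) for Dhx58, Irf8, Ifit2 and Gbp2, the 4 genes called in some comparison, by group (x axis). Numbers beside points are replicates, and bars are mean ± SD of 3 arrays. For Dhx58, Ifit2 and Gbp2 both obese groups lie above wild type, and for Irf8 the VE arrays overlap wild type.

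The 2′-5′ oligoadenylate synthetases, which make the second messenger that activates RNase L, were not called. Oas3 read 4.09, 3.99 and 3.68 in wild type, 3.56, 3.42 and 3.11 in ob/ob vehicle and 3.62, 3.34 and 3.60 in VE. It was the 1 gene of the set with every ob/ob vehicle array below every wild type array, with a difference of −0.56 (95% interval −1.06 to −0.05, adjusted p = 0.139). Oasl1, a relative that restrains Irf7 translation, differed by 0.34 (95% interval −0.15 to 0.83). Oas1a, Oas2 and Oasl2 differed by 0.10, 0.09 and −0.04. For 4 of the 5 (80%) the 95% interval lay within a doubling or halving, against 41.7% of all clusters. Oasl1, 1 of these 4, lay at percentile 0.1 of all clusters by mean signal. Oas2, Oas3 and Oasl1 were, with Irf7, Isg15 and Ifit1, the 6 genes of the set among the dimmest 30% of clusters.

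The Mx proteins are dynamin-like GTPases that trap viral components, and they were not called. Mx1 read 4.95, 4.23 and 4.96 in wild type, 5.64, 5.18 and 5.37 in ob/ob vehicle and 4.67, 4.65 and 4.83 in VE. The ob/ob vehicle arrays were above all others, and VE lay within the wild type range. The differences were 0.68 for ob/ob vehicle minus wild type (95% interval 0.11 to 1.26, adjusted p = 0.113), −0.68 for VE minus ob/ob vehicle (95% interval −1.26 to −0.10, adjusted p = 0.99) and 0.00 for VE minus wild type. The middle one had an unadjusted p of 0.0253. Mx2 had differences of the other sign, −0.50 in ob/ob vehicle minus wild type (95% interval −1.26 to 0.26) and 0.39 in VE minus ob/ob vehicle.

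Of the other antiviral effectors none was called, and wild type array 2 stood apart in a pair of them. Isg20, an exonuclease that degrades viral RNA, read 6.27, 10.51 and 5.84 in wild type, 7.85, 6.35 and 6.66 in ob/ob vehicle and 7.54, 7.94 and 8.51 in VE. With that array the interval of ob/ob vehicle minus wild type ran from −2.85 to 1.68, the widest of the set, and without it VE was higher than wild type by 1.94 (adjusted p = 0.0189). Trim30a, a TRIM protein that restrains Toll-like receptor signalling, read 6.07, 7.65 and 5.66 in wild type, 6.85, 7.45 and 7.42 in ob/ob vehicle and 7.33, 7.03 and 6.91 in VE. Without wild type array 2 it was called at 1.38 in ob/ob vehicle (adjusted p = 0.0145) and 1.23 in VE (adjusted p = 0.0191), against 0.78 and 0.63 with it. Rsad2 (viperin, an enzyme that makes a chain-terminating nucleotide) differed by −0.03 and Bst2 (tetherin, which holds budding virus at the membrane) by 0.32 between ob/ob vehicle and wild type.

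Among the GTPases that serve defence against intracellular microbes, Gbp2 was called. Its 4 relatives had differences of the other sign in ob/ob vehicle minus wild type, under quantile scaling and median centring too. Gbp2 read 8.41, 7.65 and 9.17 in wild type, 9.26, 9.43 and 10.02 in ob/ob vehicle and 9.91, 9.93 and 9.89 in VE. Both obese groups were above all wild type arrays, and the VE arrays lay close together (SD 0.02). VE was higher than wild type by 1.5 ± 0.37 (SE), or 2.83-fold (adjusted p = 0.0176). Ob/ob vehicle minus wild type was 1.16 (adjusted p = 0.0627), which was called without wild type array 3 (1.54, adjusted p = 0.00736), and VE minus ob/ob vehicle was 0.34 (95% interval −0.47 to 1.15). The VE call was lost without VE array 1 (adjusted p = 0.0569), 2 (0.0589) or 3 (0.0515), and without wild type arrays 1 and 2 together (0.74, adjusted p = 0.199).

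Gbp3 read 8.08, 7.22 and 8.13 in wild type, 6.83, 6.87 and 7.53 in ob/ob vehicle and 7.63, 7.39 and 7.25 in VE. Its difference in ob/ob vehicle was −0.73 (95% interval −1.42 to −0.04, adjusted p = 0.15), and −1.03 without wild type array 2 (adjusted p = 0.0449). The immunity-related GTPases Iigp1, Irgm1 and Igtp differed by −0.74, −0.44 and −0.34 in the same comparison. Igtp was above all ob/ob vehicle arrays on every VE array, by 0.47 on average (95% interval −0.22 to 1.15, adjusted p = 1).

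These GTPases tended to be lowest on the same array of a group, a pattern picked out after their values were seen. With Gbp4, Gbp7, Gbp9, Irgm2 and Tgtp2 from the wider pathway list, 10 were measured. Within wild type, 8 of the 10 (80.0%) were lowest on array 2, as were 51.5% of the whole set and 32% of all clusters. In ob/ob vehicle 9 of 10 (90.0%) were lowest on array 1, against 34.7% of all clusters, and in VE 9 of 10 (90.0%) on array 3, against 36.7%. Between wild type arrays 3 and 2 the gap was 1.52 for Gbp2, 1.54 for Iigp1, 2.72 for Gbp4 and −0.01 for Irgm1. The genes share sequence and induction by interferon gamma, so the 10 are not independent readings.

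**Figure D3:**
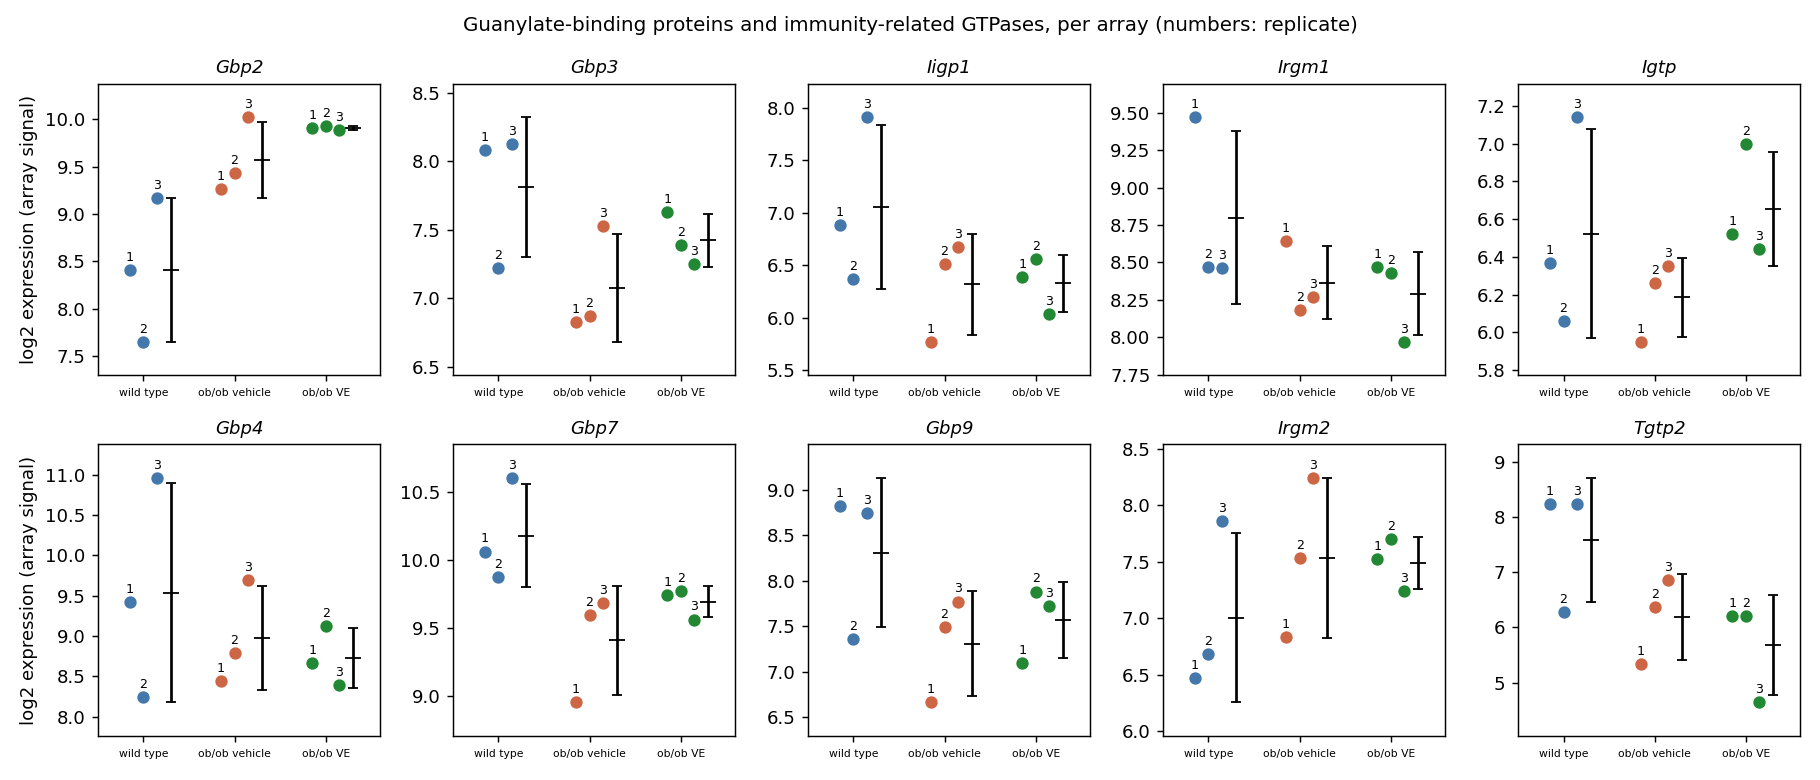
Log2 expression on each array (y axis) of 10 guanylate-binding proteins and immunity-related GTPases by group (x axis). Numbers beside points are replicates, and bars are mean ± SD of 3 arrays. Wild type array 2 is lowest of its group in 8 panels, and ob/ob vehicle array 1 and VE array 3 in 9 panels each.

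The remaining induced genes were not called. Parp14, an ADP-ribosyltransferase, was 7.76, 7.42 and 7.85 in wild type and 7.98, 8.52 and 7.86 in ob/ob vehicle, without overlap (0.44, 95% interval −0.11 to 1.00, adjusted p = 0.282). Ifi35 read 9.01, 8.42 and 8.16 in wild type, 8.49, 7.85 and 7.92 in ob/ob vehicle and 8.14, 8.85 and 8.83 in VE, with a difference of −0.44 in ob/ob vehicle and 0.52 between VE and vehicle (95% interval −0.18 to 1.22). Xaf1, a proapoptotic protein, differed by 0.06 and 0.38.

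The genes around the set were read from a wider list of 113 pathway genes, 103 of them measured, that holds ligands, receptors, kinases, sensors and further interferon-induced genes. In ob/ob vehicle against wild type 31 were higher and 1 lower (31.1% called, against 14.1% of all clusters), with a median difference of 0.497. Without wild type arrays 1 and 2 this was 17 higher and 1 lower (17.5%, against 11.3% of all clusters in that setting), with a median of 0.25. In VE against wild type 35 were higher and 2 lower (35.9%, against 20.0%), with a median of 0.473, and 19 higher and 2 lower without those arrays (20.4%, against 14.2%). None was called between VE and ob/ob vehicle, where 5 (4.85%) had an unadjusted p under 0.05 in limma, close to the 4.56% of all clusters. The same macrophage markers given above were higher in the obese groups, and their part was not tested.

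Interferon ligands were not called: ob/ob vehicle minus wild type was −0.15 for Ifnb1, −0.34 for Ifna4 and −0.08 for Ifng. By mean signal, Ifna4 lay at percentile 1.8 of all clusters, Ifnb1 at 23.2 and Ifng at 40.9. Whether these transcripts were detected was not tested. Among the receptor chains 4 were called higher in ob/ob vehicle, 33.3% of the 12 ligands and receptors, against 14.1% of all clusters. Ifnar2, the high-affinity type I receptor chain, read 12.28, 11.30 and 11.68 in wild type, 13.67, 12.81 and 13.45 in ob/ob vehicle and 14.58, 13.90 and 14.26 in VE. It was higher by 1.56 ± 0.33 (SE) in ob/ob vehicle (adjusted p = 0.0116) and by 2.49 ± 0.33 in VE (adjusted p = 0.000782), with no overlap between any of the 3 groups. VE minus ob/ob vehicle was 0.94 (adjusted p = 0.953). Ifnar1 was higher by 1.47 in ob/ob vehicle (adjusted p = 0.0227), a call lost without wild type array 1 or ob/ob vehicle array 1 or 2 (adjusted p up to 0.0924) and without wild type arrays 1 and 2 together (0.86, adjusted p = 0.231). Il10rb, a chain of the interferon lambda receptor, was higher by 2.52 (adjusted p = 0.000217) and Ifngr2, a chain of the interferon gamma receptor, by 1.94 (adjusted p = 0.00122). Ifnlr1, the other lambda chain, was lower in VE than in wild type (−1.0, adjusted p = 0.0106), and differed by −0.77 (adjusted p = 0.124) without wild type arrays 1 and 2.

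Of 8 signalling genes 2 were called in ob/ob vehicle (25%, against 14.1% of all clusters). Ptpn6, a phosphatase of blood cells that damps JAK signalling, was higher by 1.87 ± 0.36 (SE, adjusted p = 0.00674). Jak1, the receptor's kinase, was higher by 0.90 (adjusted p = 0.0446). That call was lost on leaving out any array but ob/ob vehicle array 1, with adjusted p up to 0.144. Between VE and ob/ob vehicle the outermost differences were 0.22 for Pias1, a STAT inhibitor, and −0.28 for Tyk2, the other receptor kinase, neither called.

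Of 19 further genes of nucleic acid sensing and interferon induction, 11 were higher in ob/ob vehicle and none lower (57.9%, against 14.1% of all clusters), with a median difference of 1.18. Without wild type arrays 1 and 2 it was 8 higher (42.1%, against 11.3%), with a median of 0.89. Tlr7, an endosomal sensor of single-stranded RNA, read 7.43, 9.24 and 9.44 in wild type, 12.96, 15.26 and 14.92 in ob/ob vehicle and 15.09, 14.88 and 14.28 in VE. It was higher by 5.68 ± 0.65 (SE), or 51.2-fold (adjusted p = 0.000383), and by 4.94 without wild type arrays 1 and 2. Tlr8 was higher by 5.51 (adjusted p = 1.5e-05), and Unc93b1, the chaperone that carries these receptors to endosomes, by 3.78 (adjusted p = 0.000288). These receptors are abundant in macrophages. Each obese array was above each wild type array for all 3 genes. VE and ob/ob vehicle were not called apart in this list, where the outermost differences were 0.42 for Irf3, a factor that starts interferon transcription, and −0.55 for Tlr9, the endosomal DNA sensor.

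Of 64 other interferon-induced genes 14 were higher and 1 lower in ob/ob vehicle (23.4%, against 14.1% of all clusters), and the median was 0.413. Leaving out wild type arrays 1 and 2, the count was 5 higher and 1 lower (9.38%, against 11.3%), with a median of 0.23. Slfn2, a regulator of lymphoid and myeloid cell quiescence, was higher by 3.18 (adjusted p = 7.81e-05), Ms4a6b, a membrane protein of immune cells, by 3.28 (adjusted p = 0.000531) and Parp9, a relative of Parp14, by 1.69 (adjusted p = 0.000988). Ly6e, a membrane protein that limits coronavirus fusion, was lower (−2.25, adjusted p = 0.0157). It read 18.96, 17.98 and 16.94 in wild type, 15.97, 15.98 and 15.17 in ob/ob vehicle and 15.34, 16.69 and 15.97 in VE. Its call was lost without ob/ob vehicle array 3 (adjusted p = 0.064), and without wild type arrays 1 and 2 the difference was −1.23 (adjusted p = 0.175). In VE it was lower than in wild type as well (−1.96, adjusted p = 0.0235), a call lost without wild type array 1 or VE array 1 or 3 (adjusted p up to 0.0928). Psme1, an interferon-induced proteasome activator subunit, differed by 1.43 between VE and ob/ob vehicle (13.81, 13.90 and 14.19 against 13.10, 12.07 and 12.44, adjusted p = 0.439), with all VE arrays above. Apol9b was at the other end of that comparison (−0.63, not called).

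**Figure D4:**
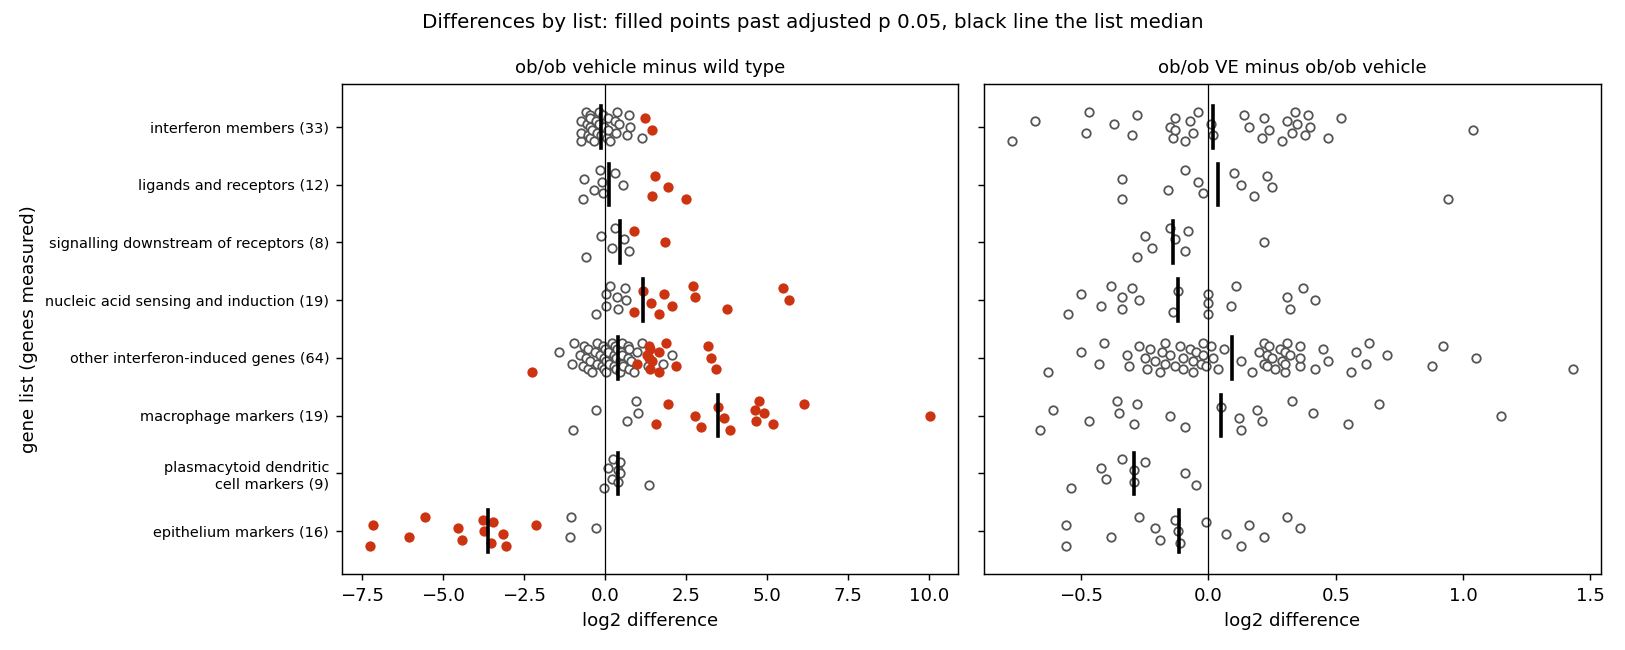
Log2 difference (x axis) of every measured gene, by list (y axis, with the number measured), for ob/ob vehicle minus wild type and VE minus ob/ob vehicle. Filled points passed an adjusted p of 0.05 and black lines are list medians. On the left the 33 interferon response genes centre at −0.11, the sensing and induction list at 1.18 and macrophage markers at 3.487, and on the right no gene of these lists is filled.

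Plasmacytoid dendritic cells, the most potent makers of type I interferon, were read from 9 markers, none of which was called in any comparison. Their mean levels were 5.53 to 5.76 in wild type, 5.97 to 6.06 in ob/ob vehicle and 5.70 to 5.77 in VE. The defining marker Siglech read 6.39, 6.92 and 6.48 in wild type, 7.13, 7.24 and 6.63 in ob/ob vehicle and 6.50, 6.92 and 6.71 in VE, with overlap between groups. Of 14 T and NK cell markers, 1 was called in ob/ob vehicle against wild type (7.14%, against 14.1% of all clusters). In VE against wild type 2 were called (14.3%, against 20.0%). All of these calls were higher in the obese group, and both shares were below those of all clusters. The mean over the 14 markers was 4.96 to 5.32 in wild type, 5.60 to 5.89 in ob/ob vehicle and 5.55 to 6.05 in VE. Against wild type the median difference was 0.325 in ob/ob vehicle and 0.188 in VE, and the highest was 6.8 and 6.59. In ob/ob vehicle 8 markers were above 0 and 6 below, and in VE 9 and 5.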

How the data were processed

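Per the labels' design text, 100 ng of RNA from each white fat sample was hybridised to a Clariom S mouse array and the authors normalised the signals by SST-RMA in Transcriptome Analysis Console 4.0.2 (version 4 per the submitters' processing notes). The deposited values are log2 expression, 1 column for each of the 9 arrays, and were used unchanged. No genome build is given in the sources used here. Arrays have no read depth, so their number limits the precision.

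Clusters were named through the platform annotation, and 2634 without a symbol were left out. One limma model (version 3.58.1, R 4.3.3) held all 3 groups, with variances moderated by empirical Bayes at 4.02 prior degrees of freedom. The Benjamini-Hochberg method adjusted each comparison over 19572 clusters. The code was tested on simulated data. Within each role, the genes of highest mean, highest and lowest statistic in ob/ob vehicle against wild type, and any called gene, were named in full. In each pathway list up to 3 called genes at either end of the statistic were named for each comparison, or the outermost 1 at either end where none was called. Sequences by rule were the promoters of called members with the core, which gave Gbp2. Other genes and sequences were chosen after their values were seen. The members, lists and alternatives were chosen with earlier results of these data known. In all, 22 alternatives were tried, among them each array left out, wild type arrays 1 and 2 left out, other scalings and the replicate number as a block. The submitters' own rule, per the labels' design text, was an unadjusted ANOVA p under 0.05 with a fold above 1.1. Their ANOVA was not rerun. As 1 of the alternatives, called the submitters' threshold, both cut-offs were applied to the unadjusted limma p of each comparison. For the F test only the p cut-off was applied. No detection calls were used. Motifs were searched in RefSeq promoter windows of build GRCm38.p6.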

Additional observations from a re-analysis of the deposited data

How the results depend on the processing

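No value called in the main setting changed sign under any alternative tried. No value called under an alternative had the opposite sign to its main value. Other values did change sign: ob/ob vehicle minus wild type ran from −1.44 to 1.11 for Isg20 and from −0.62 to 0.56 for Ifit3. Isg20 in VE minus wild type ran from −0.39 to 2.16, and was called at 1.94 without wild type array 2. Of the 33 genes, 2 were called in ob/ob vehicle against wild type. That count was 1 with only the 2 groups compared, 0 without empirical Bayes moderation, 7 under the submitters' threshold and 0 to 2 leaving out each array. For VE against ob/ob vehicle it was 0, 1 under the submitters' threshold and 0 leaving out each array. For VE against wild type it was 3, 1 with 2 groups, 0 without moderation, 6 under the submitters' threshold and 0 to 5 leaving out each array. The F test over 3 groups called 2, and 0 without moderation, 1 with array weights, 1 after quantile scaling, 4 after median centring, 5 under the submitters' threshold, 4 at an adjusted p under 0.1 and 0 to 3 leaving out each array. Of the pathway genes 32 were called in ob/ob vehicle, and 21 with 2 groups, 20 without moderation, 50 under the submitters' threshold, 18 without wild type arrays 1 and 2 and 24 to 37 leaving out each array. For VE against ob/ob vehicle 0 were, and 5 under the submitters' threshold, and against wild type 37, 21 without those arrays and 26 to 41 leaving out each. Median centring moved the median of all clusters in VE minus wild type from −0.067 to 0.04. Replicate numbers are shared by the groups, but arrays of the same number did not deviate together in every pair (correlations −0.064 to 0.181), so they were not treated as pairs. With the replicate number as a block the members' calls in ob/ob vehicle were 1, where Dhx58 had an adjusted p of 0.0579. Taking the lowest-mean cluster could change nothing, since each gene had 1 cluster. Dropping the dimmest 30% of clusters leaves 27 of the 33 genes. Among single genes, quantile scaling ended the limma calls of Irf8 in ob/ob vehicle (adjusted p = 0.0666) and Gbp2 in VE against wild type (0.0591) and added Mx1 in ob/ob vehicle (0.0434). Array weights ended that of Dhx58 in ob/ob vehicle (0.0592). Median centring added Gbp2 in ob/ob vehicle (0.0442) and Stat2 in VE against wild type (0.0478). Without wild type arrays 1 and 2 the lone wild type array is assumed to vary like the other groups. Against it Iigp1 differed by −1.59 in ob/ob vehicle and −1.58 in VE, and Trim30a by 1.58 and 1.43. In VE, Isg20 differed from it by 2.16 and Irf1 by −1.39.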
